A study of Homo sapiens with 9 samples.

Results

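The genes described here are 7 inhibitors of cyclin-dependent kinases (CDKN1A, CDKN1B, CDKN1C, CDKN2A, CDKN2B, CDKN2C and CDKN2D), the p53 ubiquitin ligase MDM2 and the D cyclins CCND1 and CCND3. They were taken by symbol, and these 10 genes of the 60591 symbols counted were all expressed highly enough to be tested. Messenger RNA was sequenced in uCaco-2 cells, which are undifferentiated, proliferating cells of a human colon adenocarcinoma line. The cells received 300 μM cobalt chloride (CoCl2), 5 μM of the oxyquinoline derivative 4896-3212 (OD) or fresh medium (control) for 24 h, with 0.5% DMSO in all 3 groups. Both agents inhibit the prolyl hydroxylases that mark hypoxia-inducible factor (HIF) for destruction, so they serve as chemical models of hypoxia. Each group had 3 biological replicates of the same line, which limits the data to 1 tumour cell background, and no genetic change was introduced.

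Cells pass from G1 into S phase when D cyclins bind CDK4 or CDK6 and begin to phosphorylate the retinoblastoma protein. The Cip/Kip proteins p21, p27 and p57, encoded by CDKN1A, CDKN1B and CDKN1C, bind cyclin-kinase complexes of several kinds, while the INK4 proteins p16, p15, p18 and p19, encoded by CDKN2A, CDKN2B, CDKN2C and CDKN2D, bind CDK4 and CDK6 alone. CDKN1A and MDM2 are textbook targets of the transcription factor p53, and MDM2 in turn marks p53 for degradation. The line used here is known to lack working p53, and the part of p53 in the results below was not tested.

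The regulatory DNA of CDKN1A and MDM2 is shown because these are the p53 targets among the genes, and both sequences are on GRCh38. A 20-base p53 consensus was searched within 2500 bases of each RefSeq start. It was taken as adjoining 10-base parts that each hold C at the fourth and G at the seventh base, with at most 2 mismatches at the other bases. It matched in 2 of the 8 genes that had a promoter entry, CDKN1A and MDM2, and in 4.59% of all 27305 genes in the RefSeq promoter table. These 2 are known p53 targets, so their matches could be foreseen and are not a result about the set. CDKN1C and CCND1 had no entry. The match of CDKN1A lies on the plus strand at chr6:36676449-36676468, at position -2256 from the start, and that of MDM2 at chr12:68808923-68808942 on the same strand, 760 bases after the first start and just before the later starts of the gene. The capitals mark the fixed C and G of each part.
CDKN1A: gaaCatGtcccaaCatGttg
MDM2: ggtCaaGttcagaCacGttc
The MDM2 match fell within the 250 bases before a later RefSeq start (plus strand, chr12:68808767-68809016), where it is set in capitals.
MDM2 later promoter: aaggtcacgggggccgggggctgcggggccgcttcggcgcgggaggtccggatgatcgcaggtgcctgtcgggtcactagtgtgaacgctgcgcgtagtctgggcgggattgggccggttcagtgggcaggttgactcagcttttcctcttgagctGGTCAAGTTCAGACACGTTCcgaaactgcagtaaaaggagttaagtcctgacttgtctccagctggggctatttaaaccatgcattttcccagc
The 250 bases before the CDKN1A start (plus strand, chr6:36678464-36678713) held 4 copies of the GC box GGGCGG, a motif bound by Sp1-family factors. They are set in capitals, and the last pair overlap by 1 base.
CDKN1A promoter: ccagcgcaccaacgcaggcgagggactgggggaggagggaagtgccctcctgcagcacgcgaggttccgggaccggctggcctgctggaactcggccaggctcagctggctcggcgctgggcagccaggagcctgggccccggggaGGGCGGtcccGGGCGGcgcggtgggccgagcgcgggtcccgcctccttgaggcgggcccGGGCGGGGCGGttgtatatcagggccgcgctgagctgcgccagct
Searched on both strands, at least 1 GC box stood in 42.6% of the 35116 promoter windows of 250 bases. A window of CDKN2C and one of CCND3, neither of which was called, held 5 each. The core of the HIF-binding motif, ACGTG or GCGTG, stood in 43.2% of them, with 1 match in the CDKN1A window and 3 in that of CDKN2D, but also 2 or 3 in each of the 3 windows of CDKN2C, which was not called, and 0 in that of CDKN2B, which was. CACGTG, read on both strands, counted as 2 overlapping matches, and it stood in both CDKN2C windows with 3. The 3 matches of CDKN2D were separate. All these matches are letters in a window and do not show that a factor was bound.

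Libraries held 15998136 to 24209427 counts. Levels are given as CPM, which are counts relative to the library total after scaling by TMM factors, and differences as log2 fold changes, tested by the quasi-likelihood method of edgeR and adjusted over the 15944 genes tested after Benjamini and Hochberg. A gene counted as called when the adjusted p was under 0.05 and the change exceeded 1 on the log2 scale, upward or downward. TMM factors were 0.770 to 0.795 with CoCl2 and 1.11 to 1.15 in the other groups, so library size alone moved the median of all genes with CoCl2 from -0.05 to -0.55, and values with CoCl2 shift with it. Of 12 intestinal epithelial markers 11 were tested and CDX1 had no count in any library, and their summed level was 11500 to 12100 CPM in the controls, 14000 to 14900 with CoCl2 and 11100 to 11600 with OD, with FABP1, VIL1 and KRT20 called lower with CoCl2. The 6 fibroblast markers, 4 of them tested, summed to 22.9 to 26.8, 18.4 to 20.8 and 32.0 to 33.4 CPM in these groups, the 6 blood markers, of which LYZ alone was tested, to 33.1 to 37.9, 49.8 to 53.5 and 33.1 to 37.3, and the 4 endothelial markers to at most 3.5. The part of these marker shifts in the results was not tested. Of 9 tested HIF target genes 8 were called higher with CoCl2 and 7 with OD, against 19.9% and 9.09% of all genes. BNIP3 rose by 3.77 and 3.98 on the log2 scale. SLC2A1 was called with neither agent (0.01 and 0.996) and EGLN3 was not called with OD (0.35).

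With CoCl2, 5 of the 10 genes rose (CDKN1A, CDKN1C, CDKN2B, CDKN2D and MDM2) and CCND1 fell, so that 6 were called where 43.2% of all tested genes were (19.9% higher and 23.4% lower). With library size alone 6 were again called, but as 3 higher and 3 lower, and over all genes the split went from 3167 higher and 3724 lower to 1833 and 5839. With OD 3 rose (CDKN1A, CDKN1C and CDKN2D) and none fell by edgeR or DESeq2, with 0 lower at an unadjusted p under 0.05, against 13.3% of all genes called (9.09% higher and 4.16% lower), and 6 of the 10 had an adjusted p under 0.05 at any fold, as did 65.6% of all genes. With CoCl2 the adjusted p was under 0.05 for 8 of the 10 and for 83.2% of all genes. CoCl2 and OD, set directly against each other, differed in 4 of the 10 (CDKN1A, CDKN1C and CDKN2D higher and CCND1 lower with CoCl2), and 41.3% of all genes were called. By the adjusted p alone they differed in 8, and in 83.5% of all genes. Libraries of the compared groups did not overlap in 8, 6 and 8 of the 10 genes, against 83.4%, 68.0% and 83.8% of all genes, so separation of the groups was common throughout the transcriptome. The median log2 fold change of the 10 genes was 0.61 with CoCl2 and 0.40 with OD, against -0.05 and -0.01 for all genes. Both treatments were compared with the same control libraries.

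**Figure D1:**
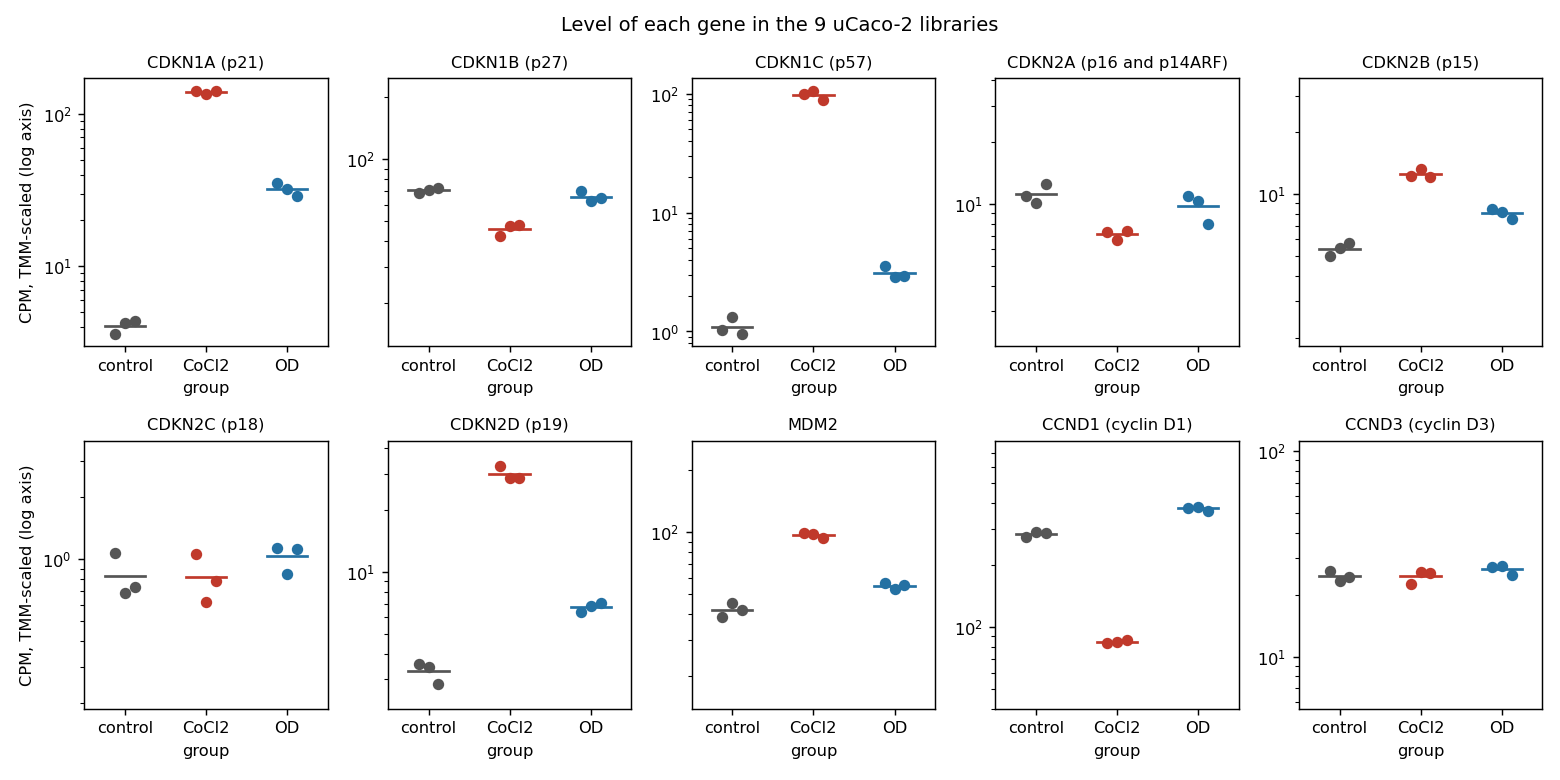
CPM in each of the 9 libraries for the 10 genes, 1 panel a gene, on a log axis with its own range, with control, CoCl2 and OD on the horizontal axis. Points are libraries and bars are group means. CDKN1A and CDKN1C stand highest with CoCl2, at 134 to 142 and 88.9 to 106 CPM, CCND1 stands lowest with CoCl2, and the 3 groups of CDKN2C and CCND3 overlap.

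Among the Cip/Kip genes, CDKN1A (chr6:36676460-36687337, plus strand) rose with both agents. Its counts were 67, 87 and 78 in the controls, 2273, 1735 and 2708 with CoCl2 and 780, 721 and 547 with OD. The 3 groups were fully apart, with OD between control and CoCl2. Mean levels were 4.08 ± 0.42 CPM in the controls, 139 ± 4.3 with CoCl2 and 32.2 ± 3.1 with OD (SD, n = 3). The rise with CoCl2 was 34.1-fold (log2 5.09, SE 0.08, adjusted p = 5.28e-55) and that with OD was 7.89-fold (log2 2.98, SE 0.09, adjusted p = 1.36e-37). The level with CoCl2 was in turn 4.32 times that with OD (log2 2.11, SE 0.06, adjusted p = 3.63e-42). CDKN1A shares 4.87% of its exonic bases with DINOL, a noncoding RNA on the opposite strand that had 0 to 3 counts in any library.

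CDKN1C (chr11:2883213-2885775, minus strand), an imprinted gene expressed mainly from the maternal copy, had the largest difference of the 10 genes with CoCl2. It had 19, 27 and 17 counts in the controls, 1613, 1373 and 1695 with CoCl2 and 78, 65 and 55 with OD. Again no library of one group reached the range of another, but here OD lay close to control. Levels were 1.10 ± 0.20, 98.5 ± 8.8 and 3.12 ± 0.37 CPM. The fold was 88.0 with CoCl2 (log2 6.46, SE 0.11, adjusted p = 2.44e-53) and 2.81 with OD (log2 1.49, SE 0.20, adjusted p = 2.88e-09). CoCl2 exceeded OD 31.3-fold (log2 4.97, SE 0.09, adjusted p = 6.74e-52), the widest gap between the treatments among these genes.

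CDKN1B (chr12:12685498-12722369, plus strand), whose protein p27 is typically abundant in quiescent cells and is mostly controlled by degradation, was not called in any comparison. Its counts were 1279, 1445 and 1289 in the controls, 678, 611 and 912 with CoCl2 and 1537, 1413 and 1210 with OD. Scaled levels were 70.7 ± 1.8, 45.8 ± 3.1 and 65.7 ± 3.7 CPM. The CoCl2 libraries lay below all others, with a log2 difference from control of -0.63 (SE 0.06, adjusted p = 9.35e-16), which is within the fold threshold. OD and control overlapped, with a log2 difference of -0.11 (adjusted p = 0.0737). Scaled by library size alone, CDKN1B and CDKN2A passed the fold threshold downward with CoCl2 (-1.13 and -1.15).

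The ratio of CDKN1A to CDKN1B counts within a library does not depend on scaling. It was 0.0524, 0.0602 and 0.0605 in the controls, 3.35, 2.84 and 2.97 with CoCl2 and 0.508, 0.510 and 0.452 with OD. It thus rose 52.9-fold between control and CoCl2 and 8.50-fold between control and OD as a difference of mean log2 ratios. The groups did not overlap, but an exact two-sided permutation test of 3 libraries against 3 cannot give less than p = 0.1, which was reached in all 12 comparisons of this and 3 further ratios (0.1 after adjustment over the 12).

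Of the INK4 genes, CDKN2D (chr19:10566460-10569059, minus strand), encoding p19, moved most. Counts were 66, 70 and 51 in the controls, 523, 367 and 542 with CoCl2 and 140, 154 and 133 with OD. The 3 groups were apart, in the same order as for CDKN1A. Levels were 3.28 ± 0.37, 29.8 ± 2.4 and 6.76 ± 0.37 CPM, a 9.04-fold rise with CoCl2 (log2 3.18, SE 0.10, adjusted p = 2.37e-37). With OD the rise was 2.05-fold (log2 1.03, SE 0.13, adjusted p = 3.03e-10), just past the fold threshold. It was 0.95 without control replicate 3, and the OD call was also lost when the test was made against the threshold itself (glmTreat, adjusted p = 1). CoCl2 exceeded OD 4.41-fold (adjusted p = 6.65e-32).

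CDKN2B (chr9:22002903-22009305, minus strand) encodes p15, a known target of TGF-beta signalling. Its counts were 93, 111 and 103 in the controls, 197, 171 and 231 with CoCl2 and 186, 183 and 142 with OD. On the CPM scale the means were 5.41 ± 0.39, 12.5 ± 0.61 and 8.04 ± 0.45, and the groups did not overlap. CDKN2B rose 2.31-fold with CoCl2 (log2 1.21, SE 0.11, adjusted p = 8.28e-16), a call lost with library size alone as scaling (0.70). The log2 difference with OD was 0.58 (adjusted p = 8.74e-06), under the fold threshold.

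CDKN2A (chr9:21967752-21995301, minus strand) lies beside CDKN2B and yields both p16 and, in another reading frame, p14ARF, an inhibitor of MDM2. The counts do not separate the 2 transcripts. They were 203, 206 and 221 in the controls, 117, 86 and 140 with CoCl2 and 240, 232 and 150 with OD. Mean levels were 11.1 ± 1.2, 7.09 ± 0.38 and 9.73 ± 1.5 CPM, so the CoCl2 libraries lay lowest and those of OD and control overlapped. The log2 differences were -0.64 with CoCl2 (SE 0.11, adjusted p = 7.82e-07) and -0.18 with OD (adjusted p = 0.109), and neither was called. CDKN2A shares 15.3% of its exonic bases with CDKN2B-AS1, a noncoding RNA of the opposite strand with 13 to 37 counts.

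CDKN2C (chr1:50960745-50974634, plus strand), encoding p18, was the least abundant of the genes and was not called. It had 20, 14 and 13 counts in the controls, 17, 8 and 15 with CoCl2 and 25, 19 and 21 with OD, and all groups overlapped. The log2 difference was 0.0064 with CoCl2 (95% interval -0.63 to 0.64, adjusted p = 0.986) and 0.31 with OD (-0.26 to 0.88, adjusted p = 0.359). Changes of any size within these intervals remained possible at this depth. A noncoding RNA of the opposite strand covers 20.4% of its exonic bases. Set against CDKN2D within each library, CDKN2C was 9.23-fold lower with CoCl2 and 1.64-fold lower with OD than in the controls, without overlap of the groups.

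MDM2 (chr12:68808177-68845544, plus strand) had 720, 921 and 750 counts in the controls, 1595, 1272 and 1796 with CoCl2 and 1249, 1189 and 1045 with OD. Control libraries lay below both treatments and CoCl2 above OD, at 42.0 ± 3.2, 97.3 ± 2.7 and 55.0 ± 2.0 CPM. It rose 2.31-fold with CoCl2 (log2 1.21, SE 0.05, adjusted p = 8.32e-30). With OD the level was 1.31 times that of control (log2 0.39, SE 0.06, adjusted p = 1.32e-08), which is not a call. MDM2 and CDKN1A, which share p53 as a known activator and each hold a match to its consensus, moved by different amounts. The ratio of CDKN1A to MDM2 counts was 0.0931, 0.0945 and 0.104 in the controls, 1.43, 1.36 and 1.51 with CoCl2 and 0.625, 0.606 and 0.523 with OD, or 14.7-fold and 6.01-fold above control. Other annotated genes overlap 14.7% of the exonic bases of MDM2. A noncoding RNA of the opposite strand shares 9.45% and a processed pseudogene of the same strand 5.29%. CPM, a carboxypeptidase gene of the opposite strand, shares 1.6% and had 58 to 228 counts. With library size alone as scaling, MDM2 did not pass the fold threshold with CoCl2 either, at 0.70.

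CCND1 (chr11:69641156-69654474, plus strand), the D cyclin best known as a target of growth factor and Wnt signalling, was the most abundant of the genes in control cells. Its counts were 5061, 5904 and 5113 in the controls, 1336, 1094 and 1639 with CoCl2 and 8338, 8666 and 6902 with OD. The 2 agents lay on opposite sides of control, with no overlap, at 84.6 ± 1.4 CPM with CoCl2 and 377 ± 8.7 with OD against 283 ± 9.2. CCND1 was 3.34-fold lower with CoCl2 (log2 -1.74, SE 0.04, adjusted p = 1.60e-43). The level with OD was 1.33 times that of control (log2 0.41, SE 0.04, adjusted p = 2.08e-14), not a call by the fold threshold. Between the treatments CCND1 differed 4.46-fold (log2 -2.16, adjusted p = 1.48e-48). LTO1, on the opposite strand with 553 to 930 counts, shares 10.4% of the exonic bases of CCND1, and how the authors' counting treated such reads is not given in the sources used here.

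CCND3 (chr6:41934934-42050357, minus strand) had 482, 477 and 435 counts in the controls, 364, 333 and 488 with CoCl2 and 603, 618 and 469 with OD. Levels were 24.6 ± 1.3, 24.7 ± 1.8 and 26.6 ± 1.4 CPM, and all groups overlapped. The log2 difference was 0.0059 with CoCl2 (95% interval -0.14 to 0.15, adjusted p = 0.943) and 0.12 with OD (-0.02 to 0.25, adjusted p = 0.127). The interval with CoCl2 does not reach the change of CCND1. Within libraries the ratio of CCND1 to CCND3 counts was 10.5, 12.4 and 11.8 in the controls, 3.67, 3.29 and 3.36 with CoCl2 and 13.83, 14.02 and 14.72 with OD. It was thus 3.35-fold lower with CoCl2 and 1.23-fold higher with OD.

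**Figure D2:**
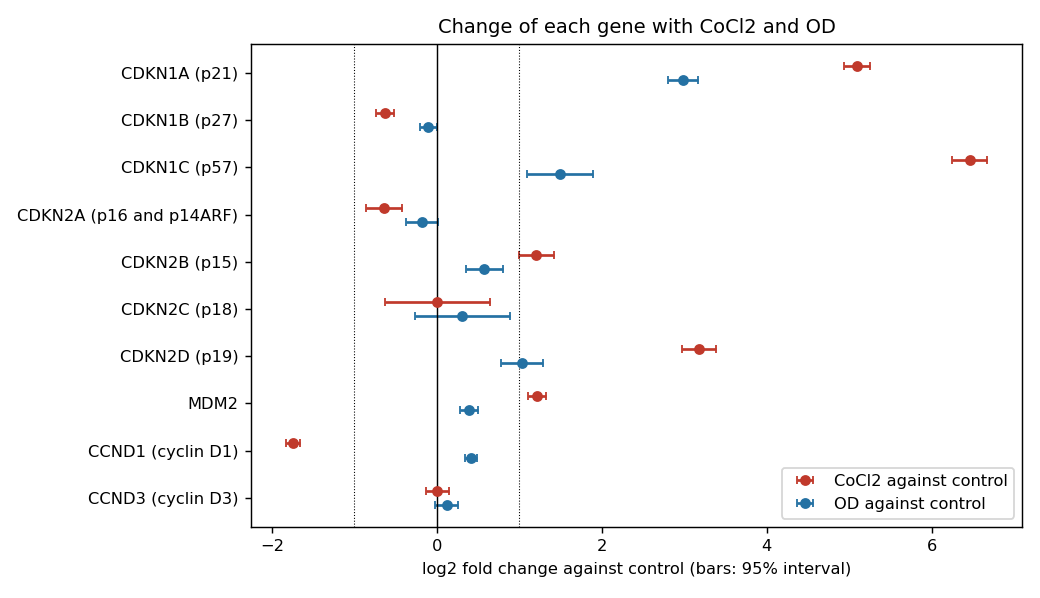
Log2 fold change of each of the 10 genes with CoCl2 and with OD against control, with 95% intervals from the standard errors of the edgeR fit over 3 libraries per group. Dotted lines mark a change of 1 in either direction. CDKN1C and CDKN1A lie farthest to the right with CoCl2, at 6.46 and 5.09, and CCND1 lies at -1.74 with CoCl2 and 0.41 with OD.

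The third D cyclin, CCND2, is known to be interchangeable with the others in many tissues and was measured beside them. It had 481, 649 and 508 counts in the controls, 55, 68 and 65 with CoCl2 and 511, 517 and 427 with OD. CCND2 fell by 2.87 on the log2 scale with CoCl2 (adjusted p = 2.86e-33), and its difference with OD was -0.33 (adjusted p = 1.21e-04). With CoCl2, then, CCND2 and CCND1 were called lower and CCND3 was not.

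Levels of different genes were compared as CPM per kilobase of exonic length. In control cells the order was CCND1 (59.4), CDKN1B (7.63), MDM2 (5.06), CCND3 (4.27), CDKN2A (2.87), CDKN2D (2.18), CDKN1A (1.36), CDKN2B (1.35), CDKN1C (0.444) and CDKN2C (0.275), and CDKN1A and CDKN2B were the only neighbours whose libraries overlapped. With CoCl2 the order became CDKN1A (46.5), CDKN1C (39.7), CDKN2D (19.8), CCND1 (17.8), MDM2 (11.7), CDKN1B (4.94), CCND3 (4.28), CDKN2B (3.13), CDKN2A (1.83) and CDKN2C (0.272), with no overlap between neighbours. By the canonical length CDKN1A (65.8) and CDKN1C (55.5) again stood above CCND1 with CoCl2, but the libraries of CDKN2D (19.93 to 22.83) and CCND1 (19.61 to 20.28) overlapped. With OD CCND1 stayed first (79.2), before CDKN1A (10.7), CDKN1B (7.09), MDM2 (6.63), CCND3 (4.62), CDKN2D (4.49), CDKN2A (2.504), CDKN2B (2.01), CDKN1C (1.26) and CDKN2C (0.342). There the libraries of CDKN1B and MDM2, of CCND3 and CDKN2D and of CDKN2A and CDKN2B overlapped. The orders in the controls and with OD also depended on the length used. By the canonical length CCND3 (12.1) and CDKN2A (11.4) stood above MDM2 (5.61) in the controls, and CDKN1B (27.2) above CDKN1A (15.2) with OD.

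The make-up of each family changed with the order. Per kilobase of exonic length, CDKN1B made up 80.9% of the summed Cip/Kip level in the controls, 5.43% with CoCl2 and 37.2% with OD. CDKN1A made up 14.4%, 51.0% and 56.2%, and CDKN1C 4.70%, 43.5% and 6.57%. CoCl2 thus left a Cip/Kip pool of CDKN1A and CDKN1C, and OD one of CDKN1A and CDKN1B. By the canonical length CDKN1B held 92.0%, 13.5% and 61.7% and CDKN1A 6.05%, 46.9% and 34.4%, so which of them led with OD depended on the length used. Of the INK4 sum, CDKN2A held 42.9%, 7.31% and 26.7% and CDKN2D 32.7%, 79.0% and 48.1%. By the canonical length these were 71.4%, 22.5% and 55.6% for CDKN2A and 14.5%, 64.8% and 26.8% for CDKN2D, so the leading INK4 gene with OD also depended on the length, while CDKN2D led with CoCl2 by both. CCND1 held 88.3%, 78.8% and 91.4% of the D cyclin sum, and CCND3 6.35%, 19% and 5.32%. The canonical length gave 80.1%, 61.0% and 84.2% for CCND1 and 14.6%, 37.1% and 12.4% for CCND3.

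Summed over the 7 inhibitors, the level per kilobase was 16.1 ± 0.31 in the controls, 116 ± 3.4 with CoCl2 and 28.4 ± 1.7 with OD (SD, n = 3). The D cyclins, CCND2 included, summed to 67.3 ± 2.1, 22.6 ± 0.63 and 86.7 ± 2.1. The ratio of inhibitor to D cyclin messages was 0.240 ± 0.0054 in the controls, 5.16 ± 0.28 with CoCl2 and 0.328 ± 0.017 with OD, and the 3 groups did not overlap. With the length of the canonical transcript instead, a choice made after seeing the data, the ratio was 0.574 ± 0.018, 5.27 ± 0.29 and 0.587 ± 0.034, and OD and control overlapped. These are ratios of messages and not of proteins.

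**Figure D3:**
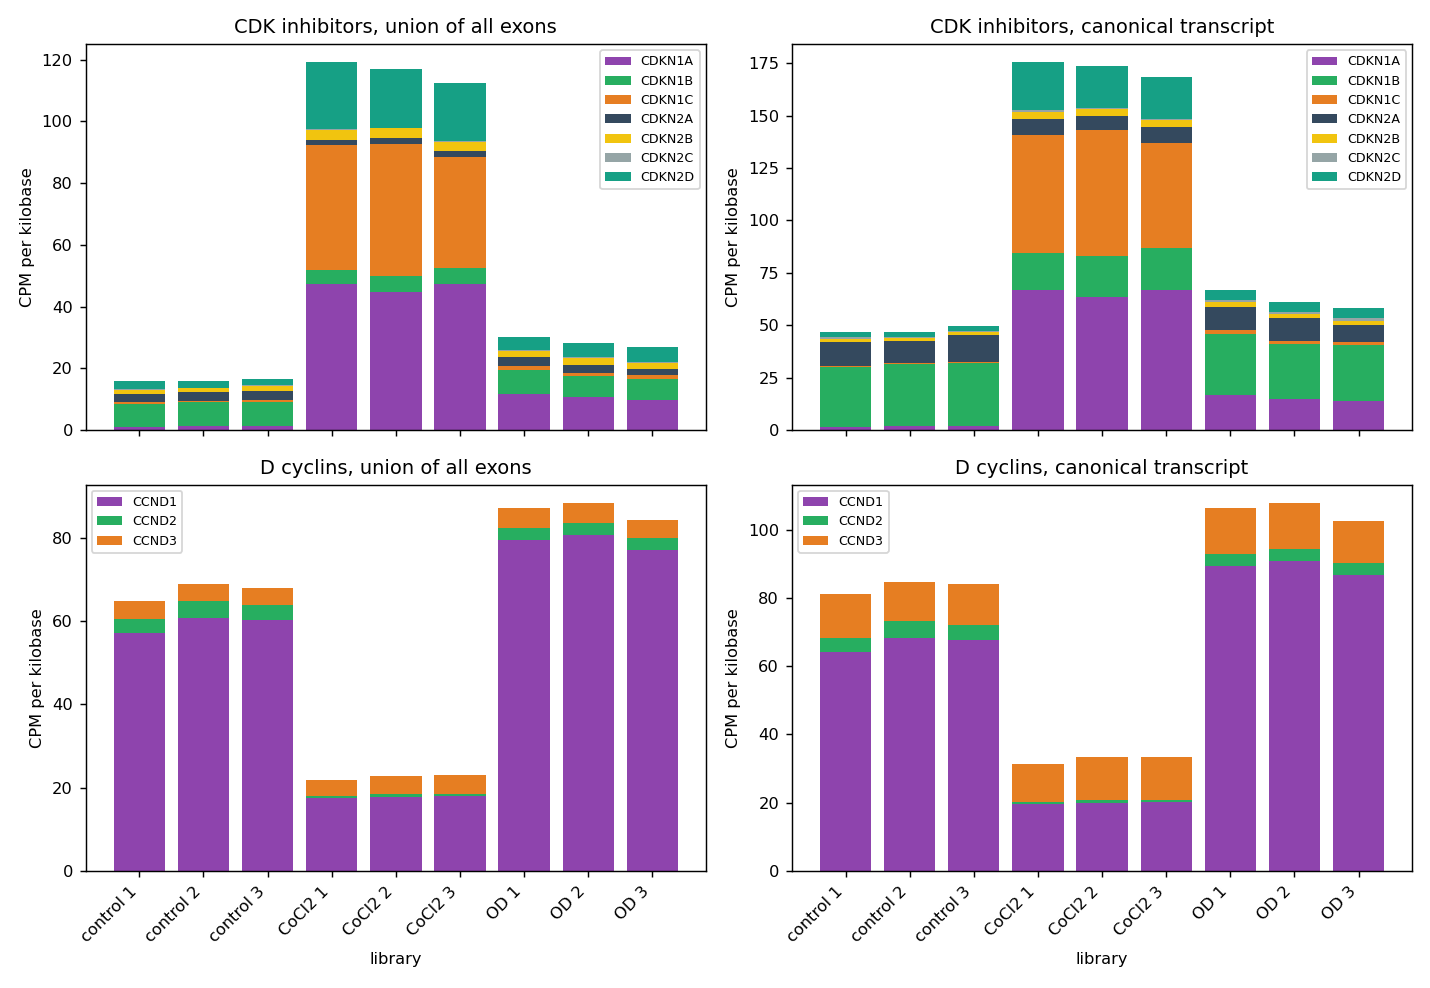
Levels in CPM per kilobase in each of the 9 libraries, stacked by gene from a baseline of 0, for the 7 inhibitors (upper panels) and the D cyclins (lower panels), with the exonic length on the left and the canonical transcript length on the right. By either length the inhibitor stack is tallest and the D cyclin stack lowest with CoCl2, at 112.5 to 119.1 and 21.8 to 22.9 by exonic length.

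The neighbourhood of CDKN2A held a noncoding RNA with a response of its own. CDKN2A-DT (chr9:21966929-21967751, plus strand) adjoins the 3′ end of CDKN2A on the other strand. It had no count in the control and OD libraries and 171, 134 and 179 counts with CoCl2, at least 63.8-fold higher than control and 70.8-fold higher than OD when 3 counts per library are taken as the limit of a count of 0. CDKN2A itself was not called, and CDKN2B-AS1 had a log2 difference of -0.66 with CoCl2 (adjusted p = 0.0295) and 0.15 with OD (adjusted p = 0.582).

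Some other genes next to the 10 were called, in either direction, as were 43.2% of all genes with CoCl2 and 13.3% with OD. CREBL2, FAF1, AP1M2, SLC35E3, BYSL and TAF8 were called with neither agent. Their log2 differences with CoCl2 were -0.03, -0.61, -0.50, -0.67, 0.20 and 0.58. KRI1, 428 bases from CDKN2D, fell by 1.90 with CoCl2 and by 1.23 with OD on the log2 scale (adjusted p = 5.59e-30 and 9.87e-23), while CDKN2D rose. APOLD1, 3547 bases from CDKN1B, fell by 2.87 with CoCl2 (adjusted p = 4.88e-23). SLC22A18AS, 1568 bases from CDKN1C and at 5 to 20 counts, rose by 1.45 with CoCl2 (adjusted p = 2.45e-04), and its log2 difference with OD was 0.30 (adjusted p = 0.538). On either side of CCND1, LINC01488 (3 to 53 counts) fell by 2.78 with CoCl2, while FGF19, 43763 bases away and at 2 to 46 counts, rose by 2.82 with CoCl2 and 3.0 with OD (adjusted p = 9.84e-10 and 3.64e-11). The nearest genes of CDKN1A, LAP3P2 and RAB44, had at most 1 count in any library.

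The partners of these genes in the G1/S step were also measured, as 14 cyclins, kinases and pocket proteins. With CoCl2 5 of them fell and 1 rose, so 6 of 14 were called, close to the 43.2% of all genes, around a median log2 fold change of -0.87 (-0.05 for all genes), and with OD none was called by edgeR or DESeq2, around a median of -0.26, although 12 had an unadjusted p under 0.05. The adjusted p with OD was also under 0.05 for 12 of the 14, and for 65.6% of all genes. CDK4, the kinase of the D cyclins, fell 4.15-fold with CoCl2, from 137 ± 8.1 to 33.0 ± 3.4 CPM (log2 -2.05, adjusted p = 6.70e-41), and stood at 76.1 ± 0.70 CPM with OD (log2 -0.85, adjusted p = 4.16e-23). CDK6 fell by 1.04 with CoCl2 (adjusted p = 2.71e-07) and its log2 difference with OD was -0.65 (adjusted p = 2.36e-05). CDK7, the CDK-activating kinase, rose by 1.00 with CoCl2, just past the threshold. The log2 difference of RB1 was 0.03 with CoCl2 (adjusted p = 0.699) and 0.17 with OD (adjusted p = 0.0249). Markers of other cell types were given with the libraries, and in bulk RNA fewer cells in a state cannot be told apart from less RNA per cell.

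Downstream of the retinoblastoma protein, 4 of 10 E2F and DP genes fell and 1 rose with CoCl2 (5 called of 10, against 43.2% of all genes, median -0.76). With OD none was called by edgeR or DESeq2 (median -0.13, 10 with an unadjusted p under 0.05). There the adjusted p was under 0.05 for 9 of the 10 and for 65.6% of all genes. E2F1 and its partner TFDP1 fell by 1.69 and 1.73, and E2F6, a repressor of the family, rose by 1.86. Of 16 S phase genes 3 fell and 1 rose with CoCl2 (4 called, a smaller share than the 43.2%), and the median of -0.17 lay closer to that of all genes. TYMS, the thymidylate synthase, fell by 2.05, and ORC1, a subunit of the origin recognition complex, rose by 1.31. With OD none of the 16 was called by edgeR or DESeq2 (median -0.22, 15 with an unadjusted p under 0.05). The adjusted p was under 0.05 for 15 of them and for 65.6% of all genes.

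TP63 and TP73 encode transcription factors that are known to act on CDKN1A. TP63 had 0, 0 and 1 counts in control cells and 0, 1 and 0 with OD against 39, 33 and 42 with CoCl2, at least 15.1-fold higher than control. TP73 went the other way, with 121, 129 and 123 counts in the controls, 24, 15 and 12 with CoCl2 and 279, 264 and 228 with OD. It fell by 2.62 with CoCl2 (adjusted p = 4.50e-20), and its log2 difference with OD was 0.89 (adjusted p = 4.30e-11). MDM4, a relative of MDM2 that inhibits p53, rose by 1.11 with CoCl2 and had a log2 difference of 0.0052 with OD (adjusted p = 0.960). The kinase HIPK2 fell by 2.44 with CoCl2, and the kinase ATR fell with both agents, by 1.66 with CoCl2 and 1.39 with OD.

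CDKN1A and MDM2 were set beside 29 other known p53 targets, of which 27 were tested. With CoCl2 10 rose and 4 fell (19.9% and 23.4% of all genes) around a median of 0.26, and with OD 7 rose and none fell by edgeR or DESeq2 (5 lower at an unadjusted p under 0.05; 9.09% and 4.16% of all genes were called) around a median of 0.40. The largest rises with CoCl2 were those of PMAIP1, which encodes the apoptosis factor NOXA (3.41, with 1.92 for OD), and the kinase PLK2 (3.36, with 0.45 for OD). PHLDA3, an inhibitor of AKT, fell by 2.11 with CoCl2 and rose by 1.26 with OD. GDF15, a stress-induced cytokine, rose by 2.83 with CoCl2 and by 1.79 with OD. The log2 fold changes of CDKN1A, 5.09 and 2.98, lay above those of all 27 with both agents, and that of MDM2 lay within their range.

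**Figure D4:**
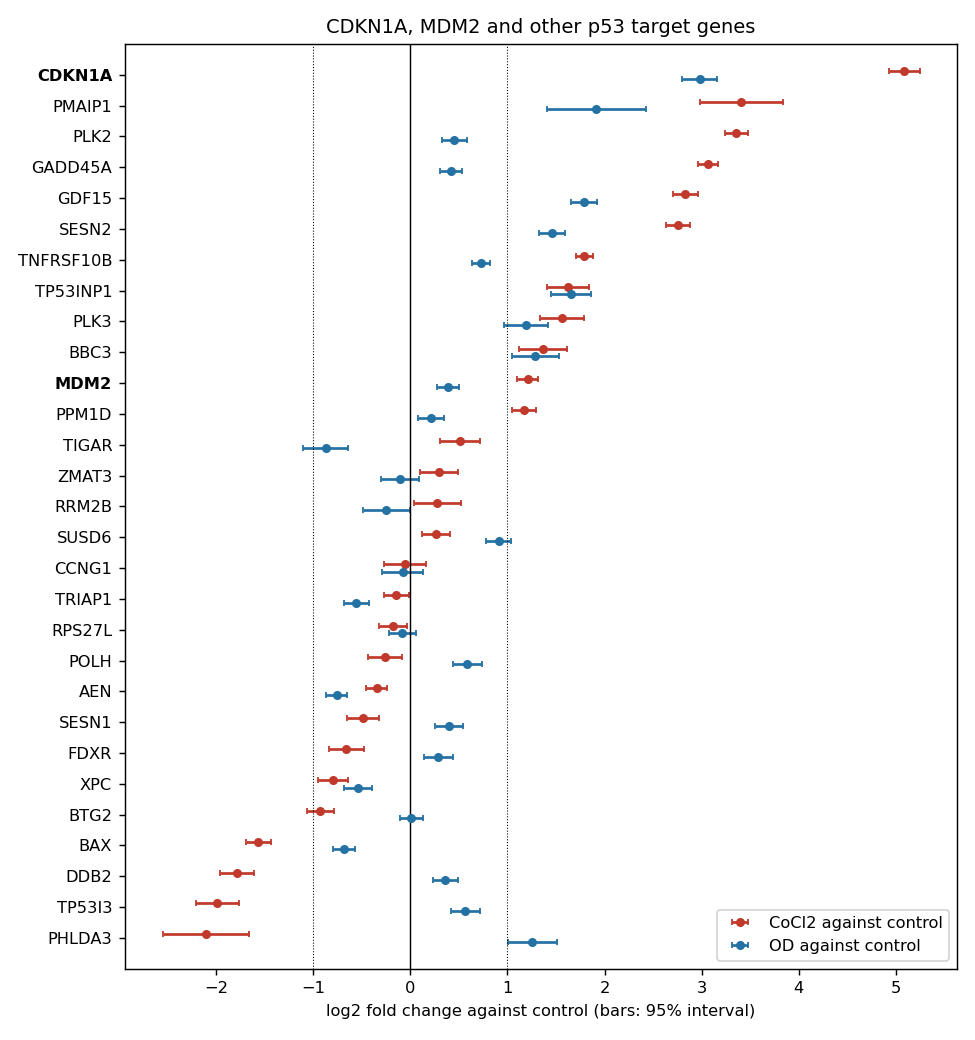
Log2 fold changes with CoCl2 and with OD against control for CDKN1A, MDM2 and the 27 tested p53 targets other than these, with 95% intervals and dotted lines at a change of 1 in either direction. CDKN1A lies to the right of every other target with both agents, and PHLDA3 lies at -2.11 with CoCl2 and 1.26 with OD.

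Ubiquitin ligases are known to turn over p21, p27 and the D cyclins, and 12 parts and kinases of that machinery were tested. With CoCl2 3 rose and 2 fell (5 of 12, near the 43.2% of all genes, median 0.36). With OD none was called by edgeR or DESeq2 (median -0.16, 9 with an unadjusted p under 0.05). There the adjusted p was under 0.05 for 9 of the 12 and for 65.6% of all genes. FBXW7, the receptor that marks cyclin E, rose by 1.74, and CKS1B, a cofactor in the degradation of p27, rose by 1.20. FBXO4, reported to mark cyclin D1, fell by 2.07 and the kinase DYRK1B fell by 1.10. Of 27 transcription regulators known to act on CDKN1A, the INK4 locus or CCND1, 11 rose and 1 fell with CoCl2 (19.9% and 23.4% of all genes, median 0.63), and with OD 2 rose by edgeR (9.09% of all genes) and 3 by DESeq2, while none fell by either (median 0.30, 5 lower at an unadjusted p under 0.05). KLF4 and ATF3, stress-responsive factors that act on CDKN1A, rose with both agents, by 2.71 and 2.46 with CoCl2 and by 2.28 and 1.90 with OD. FOSL1, an AP-1 subunit, rose by 3.73 with CoCl2 and had a log2 difference of 0.11 with OD (adjusted p = 0.256). CBX7, a Polycomb protein that represses the INK4 locus, fell by 1.501 with CoCl2. The log2 differences of MYC, a repressor of CDKN1A, were -0.78 and -0.34, neither of them a call.

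For each of the 10, the nearest genes were sought by the distance between their pairs of log2 fold changes (CoCl2 and OD against control) among 13428 genes that averaged 1 CPM or more. The nearest to CDKN1A was AL162274.1, at a distance of 0.72, and the nearest to CDKN1C was SYN3, at 0.76, so few genes had values like theirs. CDKN2D had DUSP1, a stress-induced phosphatase, at 0.033, MDM2 had PIP4K2C at 0.012, CDKN2B had ACBD5 at 0.011 and CCND1 had MTFP1 at 0.0099. CDKN1B was nearest to AKIP1, CDKN2A to DNMT3B, CDKN2C to ZFPL1 and CCND3 to ZNF814. Distances rest on 9 libraries in 3 groups with shared controls and are smaller where more genes lie.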

How the data were processed

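Messenger RNA libraries of 9 uCaco-2 cultures were read as single-end 75-nucleotide reads. The authors checked quality with FastQC 0.11.9, trimmed with cutadapt 2.10, mapped to GRCh38.p13 with STAR 2.7.5b and counted reads on GENCODE release 34 genes, and the deposited values are raw counts per symbol. The strand setting and the handling of reads that map to several genes are not given in the sources used here. A robust quasi-likelihood model was fitted to the counts of all 9 libraries by edgeR 4.0.16 (R 4.3.3) with TMM factors after filterByExpr, with Benjamini-Hochberg adjustment. Standard errors are the log2 fold change divided by the root of the F statistic, and 95% intervals are 1.96 standard errors. Data were simulated for CoCl2 against control with 200 genes changed and all others left equal, and 14862 genes were tested. Of the 187 changed genes tested 185 were recovered, and 1 unchanged gene was called. Every planted change was past the fold threshold, and far fewer genes changed than in the data. The simulation therefore cannot give the error rate near the threshold or where many genes change, as with CoCl2. Replicates of a group differed beyond sampling noise (chi-square per degree of freedom 1.83 to 3.35). Exonic lengths and coordinates came from GENCODE release 44, which matched 14225 symbols (89.2%). Promoters are those of RefSeq.

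The 10 genes, the lists beside them and the tests were chosen with earlier results of these data known. Named genes were all 10, of each list the called genes with the largest rises and falls (at most 2 each way with each agent, mean of at least 1 CPM), TP63, TP73, CCND2, CDK4, CDK6, RB1 and MYC, genes near or overlapping the 10, and the nearest in response; KRT20 and LYZ were named after their values were seen. Some genes that the rule names are not reported here. Alternatives were other scalings, filters, thresholds and designs, DESeq2 1.42.0, and leaving out each library.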

Additional observations from a re-analysis of the deposited data

How the results depend on the processing

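The number of the 10 genes called was 6 with CoCl2 and 4 between the treatments in every fit that left out 1 library, and 2 to 3 with OD, where CDKN2D was the gene lost. With an adjusted p alone, 6 were called with OD and 8 between the treatments, and of all genes 13260, 10466 and 13311 for CoCl2, OD and the direct comparison. For OD the count over all genes fell from 2113 to 1134 when at least 10 counts were required in every library and to 965 with glmTreat. That filter removed CDKN2C. The values of CDKN2C and CCND3 with CoCl2, both near 0, changed sign with upper-quartile factors (-0.093 and -0.094), library size alone (-0.50 and -0.50), only the 6 libraries compared (-0.0066 and -0.0076) and no count filter (-0.057 and -0.059), CCND3 also with the 10-count filter (-0.023). Without 1 library they ran from -0.20 to 0.23 and from -0.037 to 0.069. CCND3 had an adjusted p of 4.33e-08 at -0.50, where the median of all genes was -0.55, and the cause was not tested. With library size alone CDKN1B and CDKN2A were also called lower against OD, at -1.07 and -1.004. Over all genes the split between the treatments went from 2790 higher and 3790 lower to 1351 and 6026. The canonical length moved the inhibitor to D cyclin ratio to 0.574 in control cells and 0.587 with OD.

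Replicate numbers shared between groups did not pair the libraries (correlations of deviations -0.0293 to 0.0935). With the replicate number as a block, 6, 3 and 4 of the 10 genes were called, as without it, CDKN2C with CoCl2 was -0.017, and the 4 ratios kept their differences, with 0.25 as the smallest p that permutation within 3 pairs can give. The ratios, the rises of CDKN1A and CDKN1C with both agents, that of CDKN2D with CoCl2 and the fall of CCND1 kept their direction under all alternatives run (4.59 to 5.14 for CDKN1A, 5.96 to 6.62 for CDKN1C and -2.25 to -1.69 for CCND1 with CoCl2). Depth limits CDKN2C most, and 3 libraries per group limit exact tests.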
